A study of Arabidopsis thaliana with 32 samples.

Results

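The libraries described here were the 12 taken at hours when long-day plants stand in the dark, of 32 in the series. They were sampled at 17, 20, 23, 41, 44 and 47 h, and the hour alone chose them. The 6 long-day libraries of those hours were dark, and the 6 continuous-light libraries were lit throughout. The other 20 libraries, from day hours that were lit in both regimes, served as the reference for what a difference between the regimes looks like without darkness.

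All plants were Col-0 wild types of Arabidopsis thaliana, raised as seedlings on Murashige and Skoog plates at 24 °C in long days of 16 h light and 8 h dark for 8 days. They then stayed in long days or entered continuous light for 2 more days, so the continuous-light plants had known the same nights before. RNA came from whole seedlings, and there was 1 library per hour and regime. No label ties the libraries to separate cultures, so the p-values below measure only the spread between these libraries, which may in part be technical. In bulk samples, fewer cells of a type and less RNA per cell cannot be told apart.

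At night a leaf loses its source of sugar and its photoreceptor signal at once. Phytochromes and cryptochromes in the light hold back the COP1-SPA ubiquitin ligase and let HY5 and the B-box proteins act on photosynthesis and flavonoid genes. In the dark, growth draws on starch, the SnRK1 kinase becomes active when sugar runs short, and genes such as ASN1 and the DIN (dark-inducible) genes are known to respond. The circadian clock runs in both regimes and prepares many of the same genes for dusk and dawn, so a matched-hour comparison sets darkness against light at a similar clock time.

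Values were FPKM (fragments scaled by transcript length and library total), summed over the annotated transcripts of a locus. Differences are on the log2(FPKM + 1) scale after each library was centred on its median, which understates the change of weakly expressed loci, and folds are powers of 2 of these differences. The direct difference is dark minus lit at night hours. The day-hour difference is long days minus continuous light at hours lit in both. The night-by-regime difference is the change from day to night hours in long days minus that in continuous light. An offset between the tables that is constant on this scale thus cancels. A constant fold offset cancels only in part at weakly expressed loci. A locus was called at an adjusted p under 0.05 by limma, with Benjamini-Hochberg adjustment over all 25708 loci tested, and 6602 loci that stood at 0 throughout a table were left out. Loci in merged assembled genes, whose values can hold or lack a neighbour's reads, are marked as merged where their values are described.

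The direct comparison called 9736 loci, or 37.9% of those tested, 3889 higher (15.1%) and 5847 lower (22.7%) in the dark. At day hours, with both regimes lit, the same comparison called 8797 loci, or 34.2% (15.4% higher and 18.8% lower), and 5810 of the 9736 loci were called there with the same sign. The night-by-regime difference called 461 loci, or 1.79%, 318 higher (1.24%) and 143 lower (0.556%) at night in long days. The call was shared in sign with the direct comparison at 427 of them, 304 higher and 123 lower. The transcripts of the regimes were merged in separate tables, so levels here are compared across tables, and anything that differed between them cannot be told apart from the light regime in the direct comparison. The median over all loci was -0.06 in the direct comparison and 0.05 without centring. The share called higher among the 9736 was 39.9%, against 66.4% without centring, 56.8% with quantile normalization and 51.0% among loci with a mean of at least 1 FPKM. Without the dark library of hour 20, 44 or 47 the night-by-regime count was 296, 268 and 258.

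**Figure D1:**
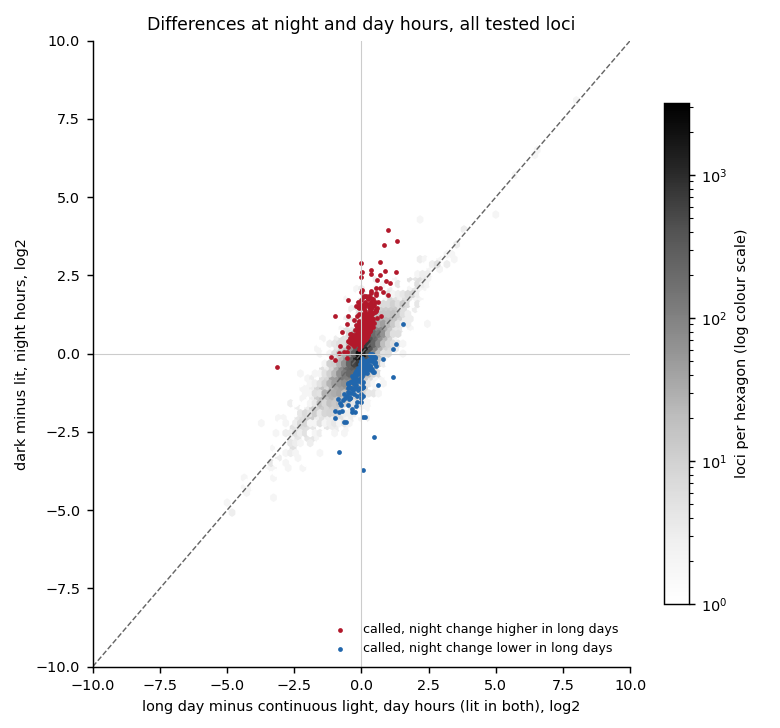
Each hexagon holds loci by their long-day minus continuous-light difference at day hours (horizontal, log2) and their dark minus lit difference at night hours (vertical, log2), shaded by the number of loci on a log scale. Most loci lie along the dashed line of equal differences, and the 461 loci called in the night-by-regime comparison (318 red, 143 blue) lie above or below it.

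Of the 304 loci called higher in both comparisons, 259 were higher at night than by day in long days and lower at night than by day in continuous light. Their median night minus day change was 0.49 in long days and -0.16 in continuous light (log2). Of the 123 called lower, 108 fell toward night in long days while they were higher at subjective night in continuous light, with medians of -0.43 and 0.25. These splits describe loci chosen by the same values and carry no test.

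Among the loci that met the naming criteria below, those with the largest direct differences were, on the higher side, ASN1, AT3G15450 and the hexose importer STP1. On the lower side they were AT3G28270 of the DUF677 family, the mitochondrial dehydrogenase NDA1 and AT1G80130, a TPR-like protein. Those named here were the 12 with the largest difference in each direction among 314 loci (228 higher, 86 lower) that were called in both comparisons, did not overlap between groups, had a mean of at least 1 FPKM and lay in no merged assembled gene. Because they were ranked by the direct difference, its size is a description. The last named loci were AT1G72900 (4.29-fold higher) and CDSP32 (3.17-fold lower). The next in order were AT1G72060, WRI4 and WRKY40 (4.28-, 4.099- and 4.04-fold higher) and FIB4, AT2G21960 and AT5G01790 (3.09-, 3.01- and 2.81-fold lower). Over all loci, groups did not overlap at 7.92% on the higher side and 13.4% on the lower side.

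**Figure D2:**
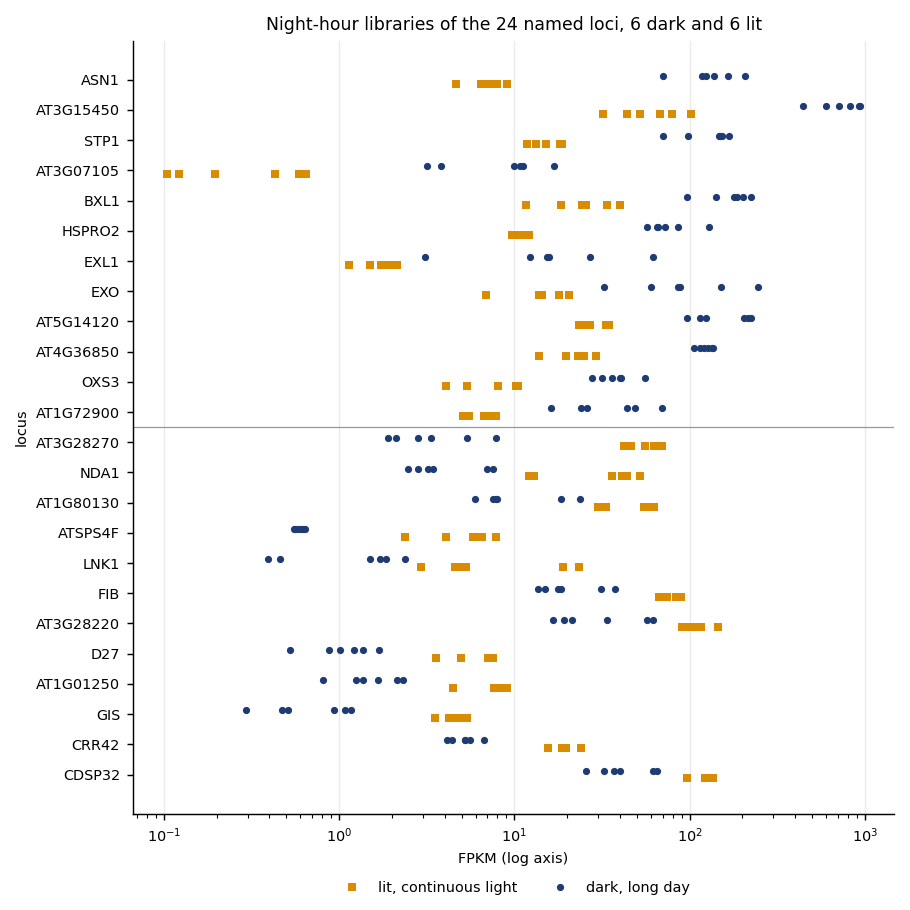
FPKM on a log axis in the 6 dark long-day libraries (blue circles) and the 6 lit continuous-light libraries (orange squares), 1 point per library. The loci are the 12 with the largest higher and the 12 with the largest lower direct difference among those that met the naming criteria. The groups do not overlap at any of the 24 loci, as the naming rule required.

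ASN1 (AT3G47340, chromosome 3, 17437840 to 17441431, minus strand, TAIR10) encodes glutamine-dependent asparagine synthetase, which stores nitrogen as asparagine when carbon is short. The dark libraries held 123, 138 and 70.9 FPKM at 17, 20 and 23 h and 207, 166 and 118 at 41, 44 and 47 h. The lit libraries held 7.53, 6.48 and 8.00 FPKM in the first night and 9.06, 4.62 and 6.85 in the second. Every dark library exceeded every lit library, and the direct difference was 3.94 ± 0.23 (SE, 6 against 6 libraries, log2; 15.3-fold; limma adjusted p = 1.74e-07). The night-by-regime difference was 2.95 ± 0.46 (adjusted p = 5.35e-04). It was made up of a change from day to night of only 0.20 in long days and of -2.74 in continuous light. In long days the daytime libraries ran from 27.9 to 189.6 FPKM with a median of 123.5, so ASN1 was about as high by day as in the dark, and it was in continuous light that it dropped during subjective night.

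AT3G15450, annotated as an aluminum-induced protein with YGL and LRDR motifs (chromosome 3, 5212984 to 5214124, plus strand), was the most abundant of the higher loci. Its dark libraries ranged from 444 to 935 FPKM with a median of 768, and its lit libraries from 32.01 to 102 with a median of 59.8. The groups stood clear of each other, with a direct difference of 3.49 ± 0.27 (adjusted p = 2.50e-06) and a night-by-regime difference of 2.63 (adjusted p = 0.0164). Here both regimes took part, with a night change of 1.33 in long days and -1.31 in continuous light.

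The 250 bases before the start of ASN1 (chr3:17441432-17441681, minus strand) and of AT3G15450 (chr3:5212734-5212983, plus strand) are shown with those of AT3G28270 (chr3:10537755-10538004, plus strand) and NDA1 (chr1:2203854-2204103, plus strand). They are the leading pairs on the higher and on the lower side, read 5′ to 3′ from the RefSeq TAIR10.1 genome. Capitals mark exact matches, on either strand, of the G-box CACGTG, the evening element core AATATCT, the I-box GATAAG and the TATCCA box, which are bound by light, clock or sugar regulators.
ASN1: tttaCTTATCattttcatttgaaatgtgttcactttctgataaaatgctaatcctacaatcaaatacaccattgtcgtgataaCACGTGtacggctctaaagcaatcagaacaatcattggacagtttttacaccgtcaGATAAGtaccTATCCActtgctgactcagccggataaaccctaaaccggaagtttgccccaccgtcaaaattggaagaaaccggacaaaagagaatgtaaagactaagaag
AT3G15450: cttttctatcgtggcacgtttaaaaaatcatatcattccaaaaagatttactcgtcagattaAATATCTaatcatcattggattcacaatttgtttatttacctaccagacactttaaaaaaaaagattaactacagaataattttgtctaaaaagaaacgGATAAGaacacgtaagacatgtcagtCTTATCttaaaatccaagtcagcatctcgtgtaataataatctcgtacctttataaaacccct
AT3G28270: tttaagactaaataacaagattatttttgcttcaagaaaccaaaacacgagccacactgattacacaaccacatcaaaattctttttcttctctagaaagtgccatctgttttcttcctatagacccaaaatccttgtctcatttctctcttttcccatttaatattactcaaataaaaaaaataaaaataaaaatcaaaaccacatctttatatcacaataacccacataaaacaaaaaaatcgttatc
NDA1: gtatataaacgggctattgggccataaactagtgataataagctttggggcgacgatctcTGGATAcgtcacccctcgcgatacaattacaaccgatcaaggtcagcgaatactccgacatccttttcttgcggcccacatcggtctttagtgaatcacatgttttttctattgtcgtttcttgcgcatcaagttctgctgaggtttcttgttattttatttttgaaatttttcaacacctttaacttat

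The ASN1 stretch held 1 G-box, 2 I-boxes and 1 TATCCA box, that of AT3G15450 held 2 I-boxes and 1 evening element core, that of NDA1 held 1 TATCCA box, and none of the 4 motifs was in that of AT3G28270. The G-box stood in 6.74% of all 25552 such stretches, in 7.57% of those of the 304 loci called higher and in 10.6% of those of the 123 called lower. The I-box stood in 12.4%, 15.8% and 7.32%, the evening element core in 9.80%, 10.9% and 16.3%, and the TATCCA box in 13.7%, 15.5% and 13.01%. On opposite strands the TATCCA box and the I-box can share bases. These are matches of letters in a fixed window, given as a description.

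Among the other higher loci were genes of sugar transport and the cell wall. STP1, a plasma-membrane hexose importer (AT1G11260), held 97.3, 148 and 70.8 FPKM in the first dark night and 167, 154 and 147 in the second. In continuous light it held 18.1, 15.2 and 18.6 and then 11.8, 13.3 and 11.8 FPKM. The direct difference of STP1 was 2.91 ± 0.21 (adjusted p = 1.41e-06) and the night-by-regime difference 2.21 ± 0.32 (adjusted p = 2.08e-04), with long-day daytime levels of 22.3 to 74.1 FPKM below most dark libraries. BXL1, a beta-xylosidase of the cell wall, had a median of 183 FPKM in the dark and 24.99 in the light, and a night-by-regime difference of 1.77. AT5G14120, of the major facilitator superfamily of transporters, had medians of 165 and 26.1 FPKM and a night-by-regime difference of 1.78 (adjusted p = 1.24e-04). AT4G36850, a membrane protein with PQ-loop repeats, held 106 to 136 FPKM in the dark and 13.8 to 29.3 in the light.

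EXO and EXL1, related extracellular proteins of which EXO is tied to brassinosteroid-dependent growth, were highest in the first hour of darkness. EXO held 150, 86.1 and 32.3 FPKM at 17, 20 and 23 h and 246, 88.3 and 60.5 at 41, 44 and 47 h, against 6.86 to 20.4 in the light. EXL1 fell from 27.1 to 3.07 FPKM over the first night and from 61.6 to 12.2 over the second, and its lit libraries lay between 1.14 and 2.13. Both thus started each night far above the lit level and lost most of the excess by its end. The direct differences at 1, 4 and 7 h of darkness were 3.82, 2.31 and 1.41 for EXO and 3.97, 2.53 and 1.18 for EXL1, though neither was called in the test of the late against the early night. For EXL1 the direct call was lost with the first night alone (adjusted p = 0.0953). The night-by-regime difference of EXO was 1.805 (limma adjusted p = 0.0254). That call was lost when each long-day library was set against the continuous-light library of its own hour (adjusted p = 0.0524).

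HSPRO2, the ortholog of a sugar beet nematode-resistance gene that binds SnRK1 in Arabidopsis, had medians of 69.4 and 10.8 FPKM and a night-by-regime difference of 1.32 ± 0.19. AT1G72900, a TIR-domain protein, followed with medians of 34.98 and 6.91 FPKM and a night-by-regime difference of 1.56. OXS3, a stress-tolerance factor, had medians of 38.2 and 6.72 FPKM. Its night-by-regime call was lost in 7 of the 12 fits that left out a library and with a pseudocount of 0.25 (adjusted p = 0.0761). The call was also lost with each long-day library set against the continuous-light library of its own hour (adjusted p = 0.0736). AT3G07105 is a long non-coding RNA of 294 bases that lies wholly within MLO3 on the opposite strand. It ranged from 3.16 to 16.7 FPKM in the dark and from 0.10 to 0.65 in the light. MLO3 was itself higher, with medians of 7.26 and 3.36 FPKM (direct difference 0.74, adjusted p = 0.00464; night-by-regime difference 0.75, adjusted p = 0.0268), and since the strand of the libraries is not given, reads of the pair cannot be told apart.

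On the lower side, AT3G28270 showed the largest difference among the loci that met the naming criteria. It encodes a putative transmembrane protein of the DUF677 family (chromosome 3, 10538005 to 10540070, plus strand). AT3G28270 held 2.81, 1.89 and 5.38 FPKM in the first dark night and 7.88, 2.099 and 3.33 in the second. In continuous light at the same hours it held 42.0, 46.4 and 62.9 and then 55.3, 55.4 and 69.6 FPKM. The direct difference was -3.73 ± 0.26 (adjusted p = 9.82e-07), the night-by-regime difference -3.80 ± 0.88 (adjusted p = 0.0196), and the day-hour difference only 0.08. The gene moved in opposite directions, by -2.45 from day to night in long days and by 1.35 in continuous light.

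NDA1, an internal alternative NAD(P)H dehydrogenase of mitochondria (AT1G07180, chromosome 1, 2204104 to 2207099, plus strand), ranged from 2.46 to 7.58 FPKM in the dark. Its lit libraries climbed from 12.2 to 44.1 FPKM over the first subjective night and from 12.9 to 52.2 over the second. The direct difference was -2.66 ± 0.40 (adjusted p = 4.13e-04). Its night-by-regime difference of -3.11 (adjusted p = 0.0435) was no longer called in 9 of the 12 fits without a library.

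Of the 12 lower loci, 4 encode proteins known from the chloroplast. FIB, a fibrillin of plastid lipid bodies (AT4G04020), fell within each night from 37.4 to 17.8 and 14.9 FPKM and from 31.1 to 18.5 and 13.7. Its lit libraries ran from 66.9 to 89.7 FPKM. The difference of FIB grew over the night, from -1.11 at 1 h of darkness to -2.28 at 4 h and -2.69 at 7 h, and the late minus early contrast was called (-1.59 ± 0.16, adjusted p = 0.016). CDSP32, a thioredoxin of the chloroplast stroma induced by drought, had medians of 38.4 and 129 FPKM, and CRR42, needed for the chloroplast NDH complex, 5.21 and 19.0. CRR42 was lower in long days by day as well (-0.97), beside a night-by-regime difference of -0.84. D27, the carotene isomerase that starts strigolactone synthesis in plastids, had medians of 1.12 and 7.11 FPKM. Its night-by-regime call was lost in 10 of 12 fits without a library and with a pseudocount of 0.25 (adjusted p = 0.0628).

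ATSPS4F, a sucrose-phosphate synthase, was nearly constant in the dark, 0.56 to 0.64 FPKM, and ranged from 2.36 to 7.83 in the light. Its night change was 0.06 in long days and 1.15 in continuous light. Most of the change was thus in the lit libraries on this scale, which understates changes at the low long-day level. With a pseudocount of 0.25 its night-by-regime call was lost (adjusted p = 0.0549). GIS, a zinc finger factor of trichome initiation, had medians of 0.72 and 4.85 FPKM and a similar split, -0.28 in long days and 0.80 in continuous light. LNK1, a coactivator of the morning clock MYBs, fell toward night in both regimes, by 4.27 in long days and 2.097 in continuous light on the log2 scale. The gap of LNK1 was widest before dawn, with 1.70 and 1.86 FPKM in the dark at 23 and 47 h against 18.9 and 23.2 in the light, and its night-by-regime call was lost in 5 of 12 fits without a library. Neither night alone gave a direct call for LNK1 (adjusted p = 0.0933 and 0.0676).

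The other 3 lower loci were AT1G80130, AT3G28220, a TRAF-like protein, and AT1G01250, an ERF/AP2-type factor. Their medians were 7.93 against 55.7, 27.6 against 102.5 and 1.51 against 8.19 FPKM. The night-by-regime call of AT1G01250 was lost in 8 of 12 fits without a library and that of AT3G28220 in 4 of 12. The first night alone gave no direct call for AT1G80130 (adjusted p = 0.0664).

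**Figure D3:**
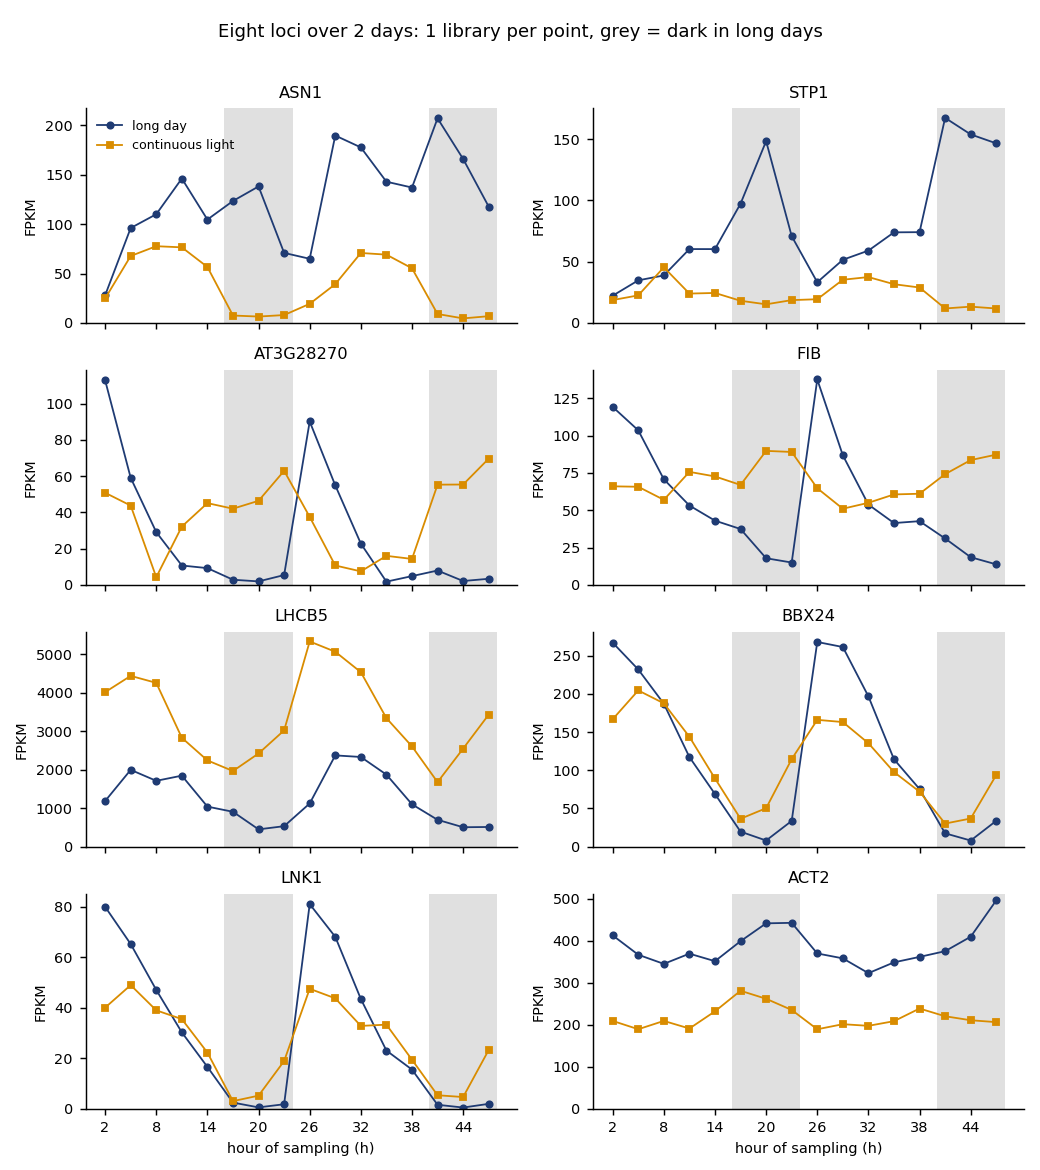
FPKM (vertical, from 0) against hour of sampling (horizontal, h) for 8 loci in long days (blue circles) and continuous light (orange squares), 1 library per point, with the dark hours of long days in grey. ASN1 drops to between 4.62 and 9.06 FPKM at subjective night in continuous light and not in the dark of long days, AT3G28270 and FIB are lower in long days at all 6 dark hours, and ACT2 is higher in long days at all 16 hours.

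The dark-induced and sugar-starvation genes had more members called in the night-by-regime comparison than any other of the 26 lists. The lists were chosen with earlier results of these data known, and this one holds leading loci named above. Its counts are therefore a description. Of 24 loci, 20 were called higher and 1 lower in the direct comparison, beside 37.9% of all loci called. By day 11 were called higher and 2 lower, beside 15.4% and 18.8% of all loci. In the night-by-regime comparison 10 were called higher and none lower, beside 1.24% of all loci called higher. The list median was 1.51 in the direct and 0.86 in the night-by-regime comparison, against -0.06 and -0.02 over all loci. The 10 were ASN1, AT3G15450, EXL1, DIN1, DIN3, DIN10, TPS8, TPS9, bZIP1 and POX1, and their number stayed between 8 and 12 under every alternative fit tried.

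DIN1, a sulfurtransferase-like protein of senescing and darkened leaves (merged in the long-day table), held 85.2, 187 and 141 FPKM and then 102, 189 and 145 in the dark. It held 8.89 to 29.6 FPKM in the light, and the night-by-regime difference was 2.91 ± 0.42 (adjusted p = 1.88e-04) beside a day-hour difference of -0.02. DIN10, a raffinose synthase-like protein (merged in the long-day table), had medians of 184 and 23.6 FPKM and a night-by-regime difference of 2.61 (adjusted p = 0.00462). POX1, proline dehydrogenase, peaked at mid-night with 110 and 109 FPKM at 20 and 44 h, against 10.9 to 16.3 in the light. The day-hour differences of DIN10 and POX1 were both 0.00, whereas that of ASN1 was 0.99 (adjusted p = 0.00777).

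Within the same list, bZIP1, a transcription factor downstream of SnRK1, had a night-by-regime difference of 0.89 (adjusted p = 0.024), which was lost in 3 of 12 fits without a library. The trehalose phosphate synthase-like genes TPS8 and TPS9 had differences of 1.02 and 0.85, and DIN3, a subunit of branched-chain keto acid dehydrogenase, 0.54. BCAT2, a branched-chain amino acid aminotransferase, had medians of 45.2 and 5.35 FPKM and was called directly (2.87 ± 0.28) but not in the night-by-regime comparison (1.69, adjusted p = 0.133). The only member called lower was DIN4, another subunit of that dehydrogenase (-2.92, and -1.91 at day hours). With assembled transcripts at the locus added, the difference of DIN4 turned to 1.28, so its direction depends on which transcripts are counted.

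Of 13 loci for the breakdown of branched-chain amino acids and lysine, 3 were called higher and 1 lower directly, a share near the 37.9% of all loci. Only MCCB, a subunit of methylcrotonyl-CoA carboxylase, was called in the night-by-regime comparison (0.70, adjusted p = 0.0328), a call lost in 6 of 12 fits without a library. Of 15 autophagy loci, 2 were called higher and 3 lower, again near that share, and the 2 higher, ATG8E and ATI1, were the ones called in the night-by-regime comparison (0.73 and 0.47), beside 1.24% of all loci called higher there. ATG8E, a ubiquitin-like protein of the autophagosome, had medians of 53.5 and 27.6 FPKM. The night-by-regime call held in 8 of 12 fits without a library for ATG8E and in 6 of 12 for ATI1.

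The photosynthesis lists were lower in the dark, but by day too. Of 21 antenna genes (LHCA and LHCB, the chlorophyll a/b-binding proteins), 17 were called lower and 1 higher at night, and 12 were called lower at day hours. Of 22 nuclear photosystem subunit genes, 21 were called lower at night and 18 by day. The shares of all loci called lower were 22.7% at night and 18.8% by day. The antenna median was -2.08 at night and -0.81 by day, so that the night-by-regime median was -0.87, and that of the subunits was -1.64, -0.95 and -0.68. No antenna gene was called in the night-by-regime comparison and 1 subunit gene was (PSAD2, merged in both tables, -2.31, adjusted p = 0.0495, lost in 9 of 12 fits without a library). When each dark or day library was instead set against the continuous-light library of its own hour, a setting added after the data were seen, 9 antenna genes were called lower at night. That setting called 860 loci or 3.35% of all, 477 higher (1.86%) and 383 lower (1.49%). These 9 were LHCA4, LHCB2.3, LHCB4.2, LHCB4.3 and LHCB6, with LHCB1.1, LHCB2.1 and LHCB2.2 (merged in both tables) and LHCB3 (merged in the long-day table).

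LHCB5, a minor antenna protein of photosystem II in an unmerged locus, held 906, 450 and 532 FPKM in the first dark night and 698, 504 and 511 in the second. Its lit libraries rose within each night, from 1963 to 3018 and from 1676 to 3427 FPKM. All 6 lit libraries exceeded all dark ones (-2.17 ± 0.23, adjusted p = 3.1e-05), yet by day long-day libraries were lower as well, with medians of 1776 and 4130 FPKM, and the night-by-regime difference of -0.87 was not called (adjusted p = 0.21). LHCB3, merged in the long-day table, showed the same rise in the light, from 532 to 1857 and from 416 to 1971 FPKM, against 39.0 to 335 in the dark. PSBR, a photosystem II subunit, was offset by day almost as far as by night (-1.76 and -2.24).

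The LHCB1 genes are near-identical copies, and 4 of the 5 were merged in 1 or both tables, and their values went in different directions. LHCB1.3 had medians of 4542 FPKM in the dark and 180 in the light, and LHCB1.5 (merged in the long-day table) 11.4 and 586. No source used here says how reads were divided among these copies, so their separate values are uncertain. Without loci in merged assembled genes, 11 antenna members were called in the direct comparison, all of those left.

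In carbon fixation, photorespiration, chlorophyll synthesis and photoprotection, too, more genes were called lower than higher in the dark. Over all loci 22.7% were called lower at night and 18.8% by day. Of 18 carbon fixation genes, 14 were called lower at night and 11 by day, with FBA1, a plastid fructose-bisphosphate aldolase, at medians of 144 and 511 FPKM and a night-by-regime difference of -1.63 (adjusted p = 0.154). RCA, rubisco activase (merged in the long-day table), had medians of 714 and 2904 FPKM. The list of 15 photorespiration and catalase genes had 10 called lower and 2 higher at night, and 4 lower and 2 higher by day. Of 24 chlorophyll synthesis genes, 17 were called lower and 1 higher at night and 15 lower by day. Of 13 photoprotection genes, 7 were called lower and 1 higher. ELIP1, an early light-induced protein, had medians of 1.28 and 8.08 FPKM, a direct difference of -2.08 and a night-by-regime difference of -1.42 (adjusted p = 0.191). None of these 4 lists had a member called in the night-by-regime comparison. With hours matched, 3 carbon fixation genes, 4 of photorespiration, 4 of chlorophyll synthesis and 4 of photoprotection were called lower, beside 1.49% of all loci. FBA1 (adjusted p = 0.00726) and CHLH, a subunit of magnesium chelatase (-1.09, adjusted p = 0.0204), were among them. The counts for carbon fixation (8) and photorespiration (7) were lower without loci in merged assembled genes, and with the second night alone 3 chlorophyll synthesis and 3 photoprotection genes were called.

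Of 12 starch synthesis genes, 9 were called lower and 1 higher in the dark, and 7 lower and 1 higher by day, beside the 22.7% and 18.8% of all loci called lower. Of 18 starch breakdown genes, 8 were called lower, 2 higher and 8 not, with 8 lower and 2 higher by day as well. SS1, starch synthase 1, had medians of 23.7 and 41.9 FPKM and a night-by-regime difference of -0.60 (adjusted p = 0.032, lost in 7 of 12 fits without a library). BAM6, a plastid beta-amylase, had a median of 0.81 FPKM in the light and was at 0 in most dark libraries, with a night-by-regime difference of -0.46 (adjusted p = 0.0235, and 0.0649 with hours matched). The widest gap, that of SBE2.2, a starch branching enzyme (merged in the long-day table, medians of 0.46 and 41.6 FPKM), was as wide by day (-4.92) as at night (-4.76). For nitrate and sulfate assimilation, 4 of 17 were called higher and 7 lower, beside 15.1% and 22.7% of all loci, and 5 in all with quantile normalization. APR3, an adenosine phosphosulfate reductase (merged in the long-day table), alone was called in the night-by-regime comparison (0.91, adjusted p = 0.00865), beside 1.24% of all loci called higher there. The direct call of APR3 was lost in 7 of 12 fits without a library.

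**Figure D4:**
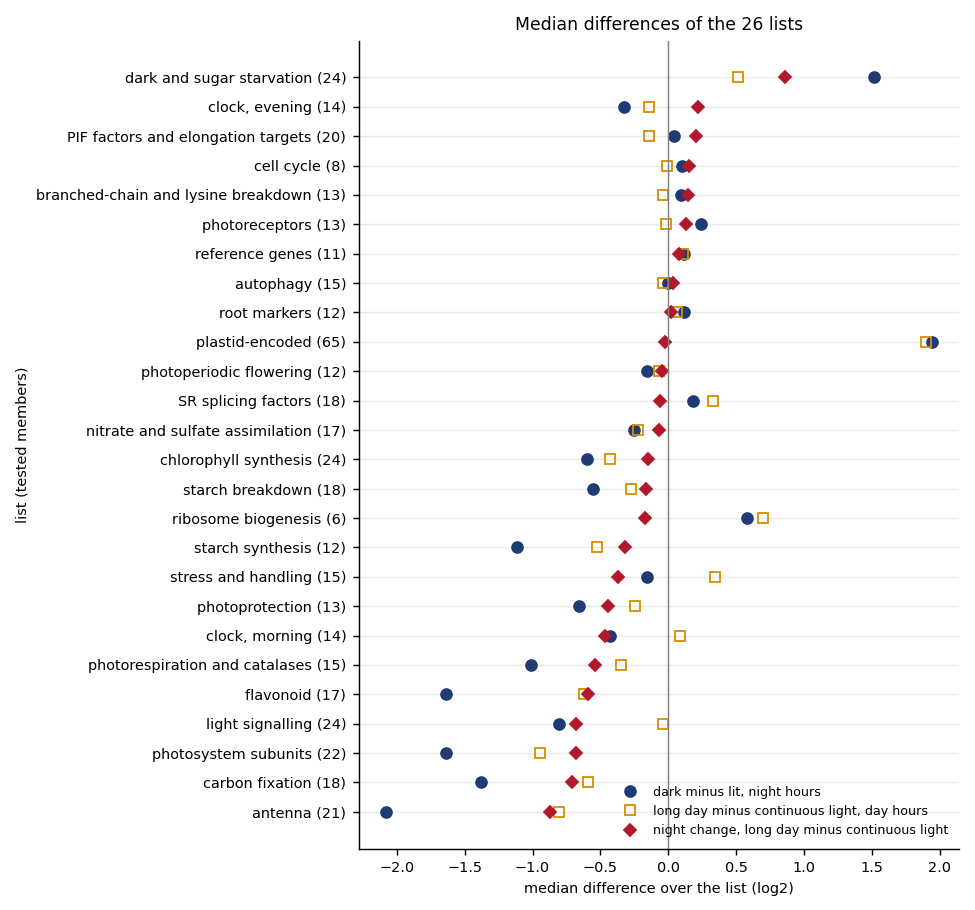
Median log2 difference over the tested members of each of the 26 lists (number of members in brackets) for dark minus lit at night hours (filled circles), long days minus continuous light at day hours (open squares) and the night-by-regime difference (diamonds). The starvation list lies farthest right in the night-by-regime difference (0.86) and the antenna list farthest left (-0.87), while the plastid-encoded list is displaced by night and day alike (1.94 and 1.89).

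Of 24 light signalling loci, 12 were called lower and 1 higher at night, beside 22.7% of all loci called lower, and 1 lower and 3 higher by day, with a median of -0.80 at night and -0.04 by day. The hour-matched setting called 8 lower and 1 higher at night, beside 1.49% and 1.86% of all loci. The main night-by-regime comparison called BBX20 alone. Either night by itself gave 5 direct calls.

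HY5, the bZIP factor that COP1 degrades in darkness (merged in the long-day table), had medians of 11.2 and 17.5 FPKM (-0.78 ± 0.14, adjusted p = 0.00103) and a night-by-regime difference of -0.71 (adjusted p = 0.276). BBX24, a B-box protein that interferes with HY5, held 19.7, 8.06 and 33.7 FPKM and then 17.5, 8.03 and 33.9 in the dark. In the light it held 36.5, 50.4 and 115 and then 30.3, 36.9 and 93.8 FPKM. It was lower in the dark at each of the 6 hours, with a direct difference of -1.67 ± 0.44 (adjusted p = 0.011), and the same pattern came back in the second night. Its night-by-regime difference of -1.84 was not called in the main fit (adjusted p = 0.0627) and was called with hours matched (adjusted p = 0.0021).

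BBX16 rose through the lit subjective night, from 2.06 to 12.2 and 26.3 FPKM and from 1.54 to 10.8 and 24.4. In the dark it stayed between 0.30 and 1.12 FPKM. Its difference widened accordingly from -0.83 at 1 h to -3.97 at 7 h of darkness, and the late minus early contrast was called (-3.13 ± 0.32, adjusted p = 0.016). BBX20, a B-box protein that works with HY5, went the other way, with 8.22 to 16.5 FPKM in the dark and 1.65 to 4.18 in the light. The night-by-regime difference of BBX20 was 1.61 ± 0.32 (adjusted p = 0.00621), it was called in all 12 fits without a library, and its day-hour difference was -0.04. BBX30 and BBX31, small B-box proteins, had medians of 0.39 and 0.45 FPKM in the dark against 5.20 and 5.67 in the light.

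The flavonoid list had 15 of 17 loci called lower at night and 12 by day, beside 22.7% and 18.8% of all loci. Its medians were -1.64 and -0.62, with a night-by-regime median of -0.59. Chalcone synthase, CHS, the entry enzyme, had medians of 82.2 and 312 FPKM (-1.76, and -1.46 by day). Chalcone isomerase, CHI, was called in the late minus early contrast: it fell from 14.5 to 10.14 FPKM over the first dark night while the lit libraries rose from 29.9 to 47.3 (-1.46 ± 0.19, adjusted p = 0.0485). MYB75, an activator of anthocyanin genes, had medians of 0.79 and 4.93 FPKM. None of the 17 was called in the night-by-regime comparison, and 3 were called lower with hours matched, beside 1.49% of all loci.

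Of 13 photoreceptor loci, 5 were called higher and 1 lower, beside 15.1% and 22.7% of all loci. The blue-light F-box gene LKP2 was called in the night-by-regime comparison (0.46, adjusted p = 0.0236, lost in 2 of 12 fits without a library). PHYA, the far-red receptor (merged in the long-day table), had medians of 56.3 and 31.9 FPKM (0.75, adjusted p = 0.0147) and a day-hour difference of -0.02. With the second night alone 1 photoreceptor locus was called. Of 20 PIF and elongation genes, 6 were called higher and 4 lower, and 2 were called higher in the night-by-regime comparison, beside 1.24% of all loci. PAR1, a helix-loop-helix protein of shade responses, had medians of 8.68 and 1.66 FPKM and a night-by-regime difference of 1.61 (adjusted p = 0.0285, lost in 5 of 12 fits without a library). XTH4, a cell-wall xyloglucan endotransglucosylase, held 215 to 389 FPKM in the dark and 97.4 to 184 in the light (1.35 ± 0.26, adjusted p = 0.00371, called in all 12 such fits). PIF4 (merged in the continuous-light table) and PIF5, the factors best known to drive growth at night, were not called (-0.42 and -0.55, adjusted p = 0.383 and 0.286).

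Of 14 morning clock genes, 1 was called higher and 2 lower at night, and of 14 evening genes 3 and 3, beside 37.9% of all loci called. CCA1 and LHY (merged in the long-day table), the morning MYBs, had direct differences of -1.18 ± 0.87 and -0.49 ± 0.90 (adjusted p = 0.304 and 0.698), and TOC1 (merged in the long-day table) -1.79 ± 0.69 (adjusted p = 0.0571). LNK1 was the only clock gene called in the night-by-regime comparison. ELF3, a scaffold of the evening complex, held 28.2, 43.6 and 39.8 FPKM and then 33.6, 48.9 and 45.0 in the dark, against 12.2 to 20.1 in the light. That difference of 1.15 ± 0.15 (adjusted p = 1.81e-04) came with a night-by-regime difference of 0.83 that was not called (adjusted p = 0.204) and was called with hours matched (adjusted p = 0.00709). GI, which binds the blue-light receptor FKF1, had medians of 0.43 and 2.75 FPKM (-1.35, adjusted p = 0.00937). COR27, a night regulator of the clock (merged in the long-day table), had medians of 18.3 and 3.29 FPKM (1.73, adjusted p = 0.00703). With hours matched, 2 morning genes were called lower, and 3 evening genes higher and 1 lower, beside 1.86% of all loci called higher and 1.49% lower. With the first and the second night alone, 1 and 2 evening genes were called.

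Of 12 flowering genes of the photoperiod pathway, 1 was called higher and 5 lower, beside 37.9% of all loci called. None was called in the night-by-regime comparison, where hours matched gave 2 lower, beside 1.49% of all loci. CDF3, a Dof repressor of CO, had medians of 2.96 and 7.69 FPKM (-1.41, adjusted p = 0.0061) and a night-by-regime difference of -1.27 (adjusted p = 0.154). The count of 6 was fragile, with 2 under quantile normalization, 3 without centring and 0 with the second night alone. FT was under 1 FPKM in both groups.

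Among 15 stress and handling genes, 3 were called higher and 4 lower, near the 37.9% of all loci called. In the night-by-regime comparison 3 were called, beside 1.79% of all loci. XTH22 (TCH4), a touch-induced cell-wall enzyme (merged in the long-day table), held 194, 74.96 and 17.8 FPKM in the first dark night and 371, 66.8 and 37.8 in the second, against 4.28 to 6.20 in the light. WRKY40, a transcription factor of defence and stress, held 11.2, 4.78 and 4.18 and then 20.4, 6.90 and 5.76 FPKM, against 0.54 to 1.25. Both were highest 1 h after lights-off and lower later in each night, as were EXO and EXL1. XTH22 is a marker of touch, and the part of handling in the dark in these values was not tested. TCH2, another touch-induced gene, was not called (0.33, adjusted p = 0.246). HSP70 had a night-by-regime difference of -1.93 (adjusted p = 0.041) that was lost in 10 of 12 fits without a library.

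Over the hours of the night the direct difference of several lists grew. The median of the antenna list was -0.87 at 1 h of darkness, -2.46 at 4 h and -2.64 at 7 h, and that of the flavonoid list -0.865, -1.62 and -2.30. The starvation list stood at 1.03, 1.78 and 1.33. These medians rest on 2 libraries against 2 at each time and carry no test. Locus by locus, the late minus early contrast called 34 loci, or 0.132% of those tested, 13 higher (0.0506%) and 21 lower (0.0817%), and 11 of the 34 had at least 1 library at 0. At an unadjusted p under 0.05 there were 1824.

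**Figure D5:**
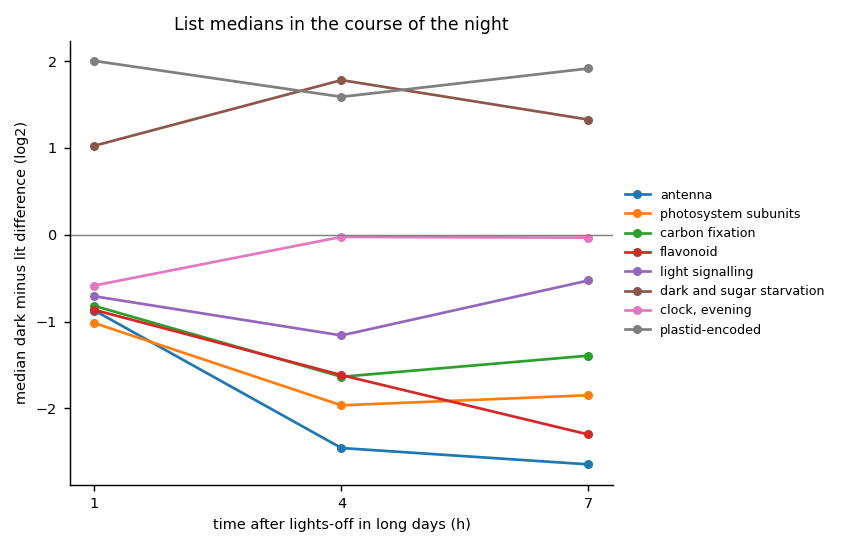
Median dark minus lit difference (vertical, log2) of 8 lists at 1, 4 and 7 h after lights-off in long days (horizontal, h), each from 2 dark and 2 lit libraries. The antenna median moves from -0.87 at 1 h to -2.64 at 7 h and the flavonoid median from -0.865 to -2.30, and the plastid-encoded median stands at 2.003, 1.59 and 1.92.

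Beside FIB, BBX16 and CHI, the loci called both directly and in the late minus early contrast included DRM1, a dormancy-associated gene of the starvation list. DRM1 held 327 to 444 FPKM throughout the dark nights, while the lit libraries fell from 233 to 92.4 and from 259 to 71.7. Its gap thus opened as the lit libraries fell (1.60 ± 0.20, adjusted p = 0.0414). AT3G19680, a DUF1005 protein, closed its gap instead, with 55.1, 20.2 and 7.59 FPKM and then 51.4, 15.3 and 11.9 in the dark against 5.63 to 7.02 in the light (-2.60 ± 0.29, adjusted p = 0.0271). AT2G23672, with no product annotated, dropped from 47.6 to 1.16 and from 51.5 to 1.57 FPKM over each dark night, against 93.7 to 129 in the light. It was lower in long days by day as well (-3.84, against -3.195 at night). Its night-by-regime difference of 0.64 was not called (limma adjusted p = 0.866).

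Some of the loci called late against early switched on or off between neighbouring hours within a table. TOC159, an import receptor of the chloroplast envelope, was at 0.82 and 1.14 FPKM in the lit libraries of 23 and 47 h and at 51.4 to 72.5 in the other 4 lit ones, while the dark libraries held 57.1 to 110. CP31B, a chloroplast RNA-binding protein, was at 0.12 FPKM and 0 in the dark libraries of 17 and 41 h and at 18.5 to 41.4 in the other 4. Both switches came back at the same hour of the second night.

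The first and the second night were compared in the same way, and 272 loci were called, or 1.06%, 135 higher (0.525%) and 137 lower (0.533%). Of these, 50 had at least 1 of the 12 libraries at 0 and 89 lay in merged assembled genes. TUA5, an alpha-tubulin (merged in the long-day table), held 146, 195 and 54.6 FPKM in the first dark night and was listed at 0 in the second. Among transcripts of long days, 396 were at 0 in all 8 libraries of one day and above 0 in all 8 of the other, and among those of continuous light there were none. Of the 396, 381 were at 0 on the first day and 15 on the second, and 66 were annotated transcripts. Of the 272 loci called, 66 (24.3%) lay in an assembled gene with such a transcript, against 513 (2%) of all loci tested. The part of this switch between days in the second minus first night calls was not tested.

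Isoform shares differed between the tables by night and by day. Of 15804 isoforms tested, 1504 (9.52%) were called dark against lit and 2474 (15.7%) at day hours, and none in the night-by-regime comparison by limma (lowest adjusted p = 0.0845; 927 at an unadjusted p under 0.05). For the SR splicing factors, 38 isoforms at 12 loci were tested. The 8 called at night were all called by day with the same sign. SR34.1 held a median of 8.42% of the locus in the dark and 77.9% in the light, and its log2 ratio to the rest differed by -5.21 ± 0.57 at night and by -4.75 by day. SR34.2 held 67.1% in the dark and was listed at 0 in most lit libraries. RS2Z32.2 held 91.7% and 64.5% (2.54 at night and 2.79 by day), and RS2Z32.1 and RS2Z32.3 held 6.04% and 1.92% in the dark against 19.7% and 15.9% in the light. The remaining calls were SR34.3 (2.09), SR45.6 (2.41) and RS40.2 (0.99, at a locus merged in the long-day table). In total level 6 of 18 SR loci were called (5 higher and 1 lower), near the 37.9% of all loci.

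Plastid-encoded transcripts differed between the tables by night and by day alike. Of 65 loci, 49 were called higher and 5 lower in the dark, and 51 higher and 3 lower by day. Over all loci, 15.1% were called higher and 22.7% lower in the dark, and 15.4% and 18.8% by day. The plastid-encoded medians were 1.94 and 1.89, and none of the 65 was called in the night-by-regime comparison. Their FPKM summed to 10000.0 to 11740 in the dark libraries and to 63.2 to 460 in the lit ones. ACT2, an actin used as a reference gene, held 375 to 496 FPKM in the dark and 206 to 280 in the light, a difference of 0.75 ± 0.10 at night and 0.74 by day. Of 11 reference genes 2 were called higher and 1 lower, and none in the night-by-regime comparison.

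The ribosome biogenesis list had 3 of 6 called higher at night and 5 by day, and the cell cycle list had 1 of 8 called in each direction at night. Beside these lists and the root markers below, 15.1% of all loci were called higher and 22.7% lower at night. By day the shares were 15.4% and 18.8%. Shares of tissue were looked at through marker genes. All 12 root markers were detected in both groups, and their FPKM summed to 77.1 to 128 in the dark and 64.2 to 108 in the light. Among them 4 were called higher and 2 lower at night, 4 higher and none lower by day, and none in the night-by-regime comparison. The green-tissue markers RBCS1A (merged in both tables), RCA, PRK and LHCB3 were present in every library, with RBCS1A between 8.86 and 3690 FPKM in the dark and between 2979 and 4529 in the light. The carbon fixation gene GAPB was undetected throughout a table, so it could not be used as a green-tissue marker. The part of tissue composition in the differences above was not tested.

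Library totals over all transcripts were 569534 to 587307 FPKM in long days and 578473 to 622006 in continuous light, and 44336 to 47868 and 42675 to 44980 transcripts stood above 0. The number of reads behind these values is unknown, so no counting interval could be given, and the errors above come from the spread between libraries.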

How the data were processed

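The deposited values are FPKM per transcript and library, 1 file for each light regime, with annotated and newly assembled transcripts side by side, per the file headers. Per the submitters' processing notes the genome was TAIR10. No source used here gives the aligner, the assembler, the strandedness or the read numbers.

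FPKM of annotated transcripts were summed by locus, and 32310 loci stood in both tables. All newly assembled transcripts were left out, also those at a single locus (9242 in long days and 8204 in continuous light). Loci in merged assembled genes were kept (4403 of those tested). Loci at 0 throughout a table were dropped, which left 25708. Symbols and positions came from the TAIR10.1 RefSeq annotation, which matched 32121 of 32137 loci to the base. Values were moved to log2(FPKM + 1), and each library was centred on its median. The contrasts of the report were fitted by limma 3.58.1 in R 4.3.3 (lmFit, eBayes with trend, Benjamini-Hochberg). The direct, late-early and night contrasts used 12 libraries, and the day-hour and night-by-regime contrasts used all 32. Isoform use was tested as the log2 of an isoform over the rest of its locus with a pseudocount of 0.5, for shares of 5 to 95% at loci of at least 1 FPKM. In simulated data, log2 changes of 0.5, 1.0 and 2.0 were put into 67, 67 and 66 of 25708 loci. The direct test recovered 29.9%, 65.7% and 87.9% of them. Far fewer loci were changed there than were called in the data, which makes the adjusted threshold stricter. These shares therefore do not give the sensitivity of the direct test in the data.

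Loci named were the 12 largest direct differences per direction under the criteria in the report, up to 3 called members per list and direction, members whose role the text needs, and 5 per direction for the late-early and night contrasts. The comparison, the 26 lists and the markers were chosen with earlier results of these data known. In the lists, GAPB, IVD, APL1, HSP90.1, TCH3 and UBQ10 were at 0 throughout a table and were not tested. Alternatives were other scalings, filters and pseudocounts, each library left out, single nights, assembled transcripts added and an hour block, with the hour-matched night-by-regime setting added after the data were seen. Night-hour libraries of the same hour did not deviate together (correlations of -0.04 to 0.04), so the direct fit did not pair hours. Day hours were not checked in this way. The main night-by-regime fit also had no hour term, so change between the hours of a group counted as spread there.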

Additional observations from a re-analysis of the deposited data

Results flagged for a closer look

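In 20 of the 262 groups of 6 libraries checked (131 named loci, dark and lit) 1 library stood far from the other 5, by a gap beyond the critical value of Dixon's test on the centred log2 scale. Chance flags about 1 in 20 groups. In the lit libraries these were AT1G01250 at 44 h (4.46 FPKM), PSAO at 23 h (512), RVE2 at 44 h (0) and, at 41 h, CDSP32 (96.4), CHLI1 (168), BAM4 (16.4), GLN2 (1009), FLC (8.53) and CYCD3.1 (10.8). In the dark libraries they were GDCH (0.292) and GWD1 (0) at 17 h, FBA1 (91.0), CYCB1.1 (0.363), CASP1 (1.67) and TUB2 (23.04) at 20 h, PAR1 at 23 h (3.72), RBCS3B at 41 h (4.25), SBE2.2 at 44 h (3.14), and GLDP2 (1.59) and ISA1 (17.5) at 47 h. The other 5 dark libraries of GDCH and CYCB1.1 were at 0. Of these loci, CHLI1, CYCB1.1, SBE2.2 and GLDP2 were merged in the long-day table and CYCD3.1, TUB2 and RBCS3B in both.

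The dark minus lit difference changed from 1 to 7 h of darkness (limma adjusted p under 0.05, log2) by -6.62 at LHCB1.2, -5.69 at AT1G66820, -4.62 at AT2G23672, -3.70 at TCP9, -3.45 at AT3G49810, -3.13 at BBX16 and -1.59 at FIB. It changed by 5.75 at TOC159, 4.40 at CP31B, 3.77 at AT4G40040, 3.32 at RALFL22 and 3.08 at AT5G16110. At AT1G66820, TCP9 and CP31B some of the 12 libraries were at 0 (2, 4 and 1). LHCB1.2 was merged in both tables and AT5G16110 in the long-day table.

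From the first to the second night the difference changed by -6.65 at TUA5, -6.31 at AT3G62120, -6.28 at HTB9, -6.16 at ANNAT1, -6.01 at AT5G61170 and -1.44 at CSD2. It changed by 6.22 at PKT3, 5.89 at AT5G57290, 5.81 at BGAL1, 5.55 at AT5G60680, 5.45 at ATAUX2-11, 4.04 at BBX21, 1.48 at OXS3 and 0.94 at GOX2. At TUA5, AT5G57290, ATAUX2-11 and BBX21, 3 of the 12 libraries were at 0. TUA5, AT3G62120, ANNAT1, AT5G57290, BBX21 and GOX2 were merged in the long-day table and HTB9 in both.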

How the results depend on the processing

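The direct count of 9736 loci was 6386 with the first night alone and 3844 with the second, with fewer libraries in each, and 8684 to 9505 when a library was left out. The night-by-regime count of 461 was 703 with assembled transcripts at the locus added, and 258 to 618 when a library was left out, highest without the dark library of hour 17. With the hour as a replicate block, the direct count was 8582, the night-by-regime count 860 (409 of them shared with the 461) and the isoform count 980 in place of 1504. Among night-hour libraries, 1 of 6 dark ones correlated best with the lit library of its own hour. The dark libraries of 23 and 47 h correlated best with the lit ones of 47 and 23 h. Day hours were not checked in this way. The other settings kept these counts within 1.5 times. With assembled transcripts added, GLYK (-1.05), PHOT2 (-0.46), DIN4 (1.28 directly and 1.09 in the night-by-regime contrast), ALDH6B2 (0.28), SS3 (-0.23) and RS40 (-2.84) turned in sign, and the cause was not tested (GLYK, SS3 and RS40 were merged in the long-day table). For the 24 leading loci, 548 of the alternative fits of the direct difference kept the call and 4 lost it, and 455 kept and 49 lost the night-by-regime call. The number of reads is unknown, so what depth limits cannot be stated. Changes of 0.5 on the log2 scale were mostly missed in simulated data, in which far fewer loci were changed than were called here.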
